A study of Caenorhabditis elegans with 18 samples.

Results

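At 50 h after synchronisation, wild-type Caenorhabditis elegans grown on ascr#10 were compared with worms grown on water. The comparison was defined by the sample labels and covers 6 of the 18 samples of the series, 3 with ascr#10 and 3 with water, fitted on their own so that differences at 58 h did not enter the spread. Of 46253 genes in the deposited table of counts, 15199 had enough counts to be tested in these 6 samples, and all of them are described here.

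All worms were of the N2 strain and carried no transgene or mutation. They were synchronised as starved first-stage larvae (L1), placed at 30 to 50 per plate on lawns of OP50 bacteria and grown at 20 °C, with 8 plates prepared for each of the 50 h conditions. The ascr#10 plates had been spread with 2.2 fg or 1.1 fg of the compound, depending on plate size, and the water plates with water alone. The ascr#10 stock was kept in ethanol before it was diluted in water, and the labels name no ethanol control. Delayed, abnormal and male worms were taken off the plates before harvest, and RNA came from whole animals. One label field gives 58 h for every sample, while titles and descriptions give 50 h for these 6, which the design text also does. Independence of the 3 samples of a condition is stated in the labels, but not that they came from separate plates, so p-values reflect only how far these samples differ from each other.

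Ascarosides are small signalling molecules that nematodes secrete, built from a sugar and a fatty acid side chain that is shortened by peroxisomal fatty acid oxidation. ascr#10 is made mainly by males and is sensed by hermaphrodites, and the series is about its effect on the egg-producing germline. Around the age sampled here a hermaphrodite completes its last moult and turns from making sperm to making oocytes. The intestine then makes yolk proteins (vitellogenins) and exports them to the oocytes, while the epidermis stops making larval cuticle collagens and makes adult ones.

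Total counts were 28.1 to 30.1 M in the ascr#10 samples and 25.6 to 32.7 M in the water samples (M, 1e6 counts). The first principal component of the 6 samples held 33.4% of the variance and placed the ascr#10 samples between -15.8 and -13.3 and the water samples at 11.2 or higher. Over all 18 samples the first component held 85.6% and set the ages apart, with every 58 h sample at 53.92 or higher. On it the 50 h ascr#10 samples lay at -132.8 to -131.8 and the 50 h water samples at -142.2 to -141.3. Whether worms of both conditions had reached the same stage at 50 h was not tested. Ribosomal RNA genes took 2.29% of the counts of ascr#10 replicate 2 and 0.353% to 0.757% of those of the other 5 samples. The ribosomal RNA genes themselves were not called, and counts of called genes in the groups described below are given without this sample where they moved by more than 1.5 times. Markers of intestine, muscle, epidermis, neurons, oocytes and sperm were all detected, as the label of whole animals calls for, the lowest being the larval epidermis marker dpy-7 at 1.03 to 2.15 CPM (counts per M). The male markers lov-1, pkd-2 and cwp-1 were each at or under 0.178 CPM in every sample, and of the embryo markers med-1 was at 0, end-1 at or under 0.0372 CPM and end-3 at 0.178 to 0.234 CPM.

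Many genes differed between ascr#10 and water at 50 h, nearly all of them by small amounts. With edgeR's quasi-likelihood test, 2840 genes (18.7% of those tested) passed an adjusted p of 0.05, of which 1556 (10.2%) were higher and 1284 (8.45%) lower in ascr#10. The median size of the difference among them was 1.14-fold, and 1832 (64.5%) differed by under 1.2-fold. Only 217 genes (1.43%) also differed by at least 1.5-fold, 63 (0.415%) higher and 154 (1.01%) lower. A 2-fold difference was reached by 45 (0.296%), 14 higher and 31 lower. The samples of a group were close to each other, with a biological coefficient of variation of 2.81%.

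The balance of higher and lower calls depended on the scaling of the libraries. TMM scaling, which assumes that most genes did not change, gave 1556 higher and 1284 lower. Scaling by library size alone gave 643 higher and 2538 lower, limma on log2(TPM + 1) gave 248 and 904, and an offset that removed each sample's trend with gene length gave 2316 and 1015. The median log2 fold change of all genes was -0.0051 with TMM, -0.058 with library size alone and -0.064 on log2(TPM + 1). Differences of under about 0.06 on the log2 scale therefore have no fixed direction here, and neither has the median of a gene group that lies that close to 0. Medians on log2(TPM + 1) cover only the genes of a group with a mean TPM of at least 1.

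**Figure D1:**
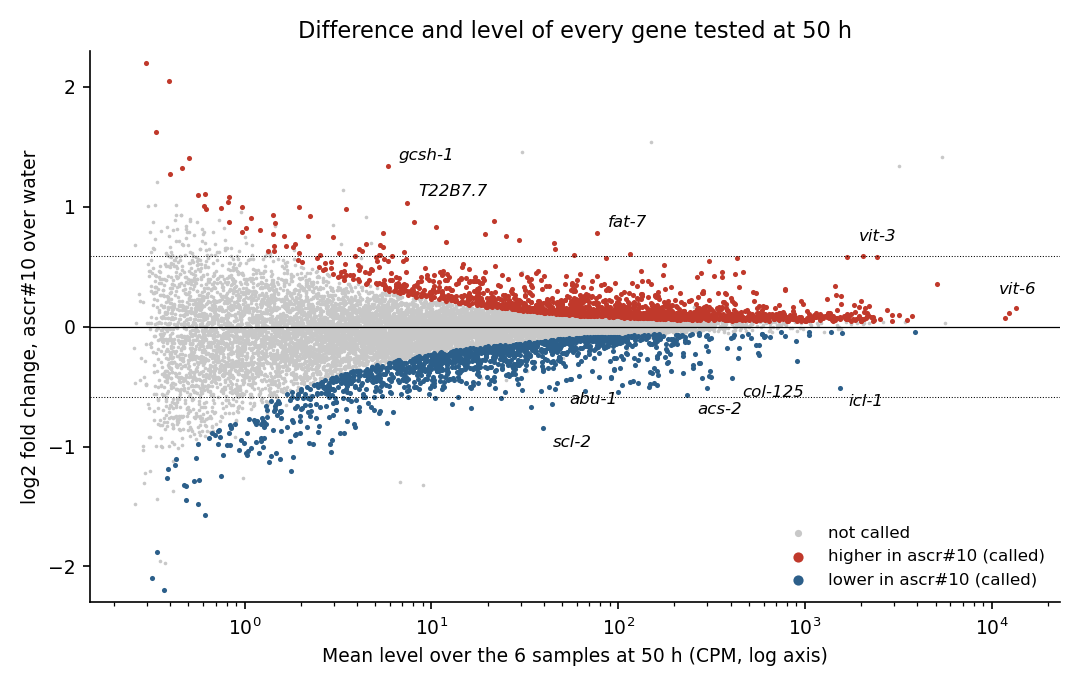
Log2 fold change (ascr#10 over water, y axis) against mean level in CPM over the 6 samples (x axis, log scale) for the 15199 genes tested at 50 h. Red and blue points are the 1556 genes called higher and the 1284 called lower, dotted lines mark 1.5-fold, and points beyond the axis are drawn at its edge. Most called genes lie between the dotted lines, and the larger differences lie mostly at low levels.

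With TMM scaling, level and direction went together. Among the 538 genes with a mean over 300 CPM, 323 (60%) were higher and 35 (6.51%) lower in ascr#10. Among the 2816 genes of 10 to 30 CPM, 219 (7.78%) were higher and 387 (13.7%) lower. Their median log2 fold changes were 0.062 and -0.017, about as large as the shift between scalings given above or smaller. These shares were counted with TMM alone, and the abundant genes were called more often in general (66.5% against 21.5%). Of the 217 genes that differed by at least 1.5-fold, 182 had a mean under 5 CPM. Of the 45 at 2-fold, 43 were under 5 CPM, and gcsh-1 and T22B7.7 were the 2 others. On the X chromosome 245 of 2100 genes were higher (11.7%) and 123 lower (5.86%), against 10.2% and 8.45% of all genes. Its median log2 fold change was 0.012, within the range given above as without a fixed direction. All 4 called genes of the 14 tested on the mitochondrial genome were higher. Among protein-coding genes, a flanking gene called in the same direction was found for 26.3% of the 1550 higher genes, while 20% of all tested protein-coding genes had a flanking higher gene. For the 1172 lower genes the shares were 21.5% and 15.5%.

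The highest log2 fold changes among well-measured genes (mean of at least 5 CPM, no overlap between groups) included genes of glycine and fatty acid metabolism, small heat shock proteins and a detoxification enzyme. gcsh-1, which encodes a predicted H protein of the glycine cleavage system (chromosome X, 14514130 to 14515073), had 8.72, 8.84 and 7.74 CPM in ascr#10, against 3.88, 3.22 and 2.91 CPM in water. Each ascr#10 sample was well above every water sample. The log2 fold change was 1.34 ± 0.12 (SE, adjusted p = 1.3e-14), a 2.52-fold difference. T22B7.7 (chromosome X, 5651865 to 5654074) had 10.1, 10.5 and 9.42 CPM in ascr#10 and 4.97, 4.57 and 5.13 CPM in water. The groups did not overlap, and the difference was 2.05-fold (adjusted p = 5e-13). F21C10.9 had 28.6, 26.5 and 28.9 CPM in ascr#10 and 14.1, 15.5 and 16 CPM in water, 1.85-fold, and it overlaps a gene on the other strand that was also tested, so that its reads may not be its own if counting ignored strand. F46F2.3 was 1.83-fold higher, F42A8.1 1.69-fold and Y94H6A.10 1.62-fold.

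fat-7 encodes a stearoyl-CoA desaturase, which makes monounsaturated fatty acids, and lies on chromosome V from 7151353 to 7153146. It had 101, 95.4 and 96.8 CPM in ascr#10, against 56.1, 57.7 and 56.8 CPM in water. The 6 values formed a high and a low group with little spread in either, and the log2 fold change was 0.78 ± 0.031 (adjusted p = 2.6e-30). gst-4, a glutathione S-transferase used as a marker of oxidative stress responses, had 13.8, 13.3 and 13.5 CPM in ascr#10 and 8.23, 6.74 and 8 CPM in water, and was higher in each ascr#10 sample than in any water sample. Its log2 fold change was 0.83 ± 0.084 (adjusted p = 3.3e-12), although it shares its strand and some exonic sequence with dhs-12. acox-1.2, an acyl-CoA oxidase of ascaroside side-chain shortening, averaged 6.95 ± 0.197 CPM in ascr#10 and 4.04 ± 0.375 CPM in water (SD, n = 3 each). hacd-1, a hydroxyacyl-CoA dehydrogenase, averaged 36.9 ± 1.95 CPM in ascr#10 and 22.3 ± 0.218 CPM in water, a log2 fold change of 0.72.

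**Figure D2:**
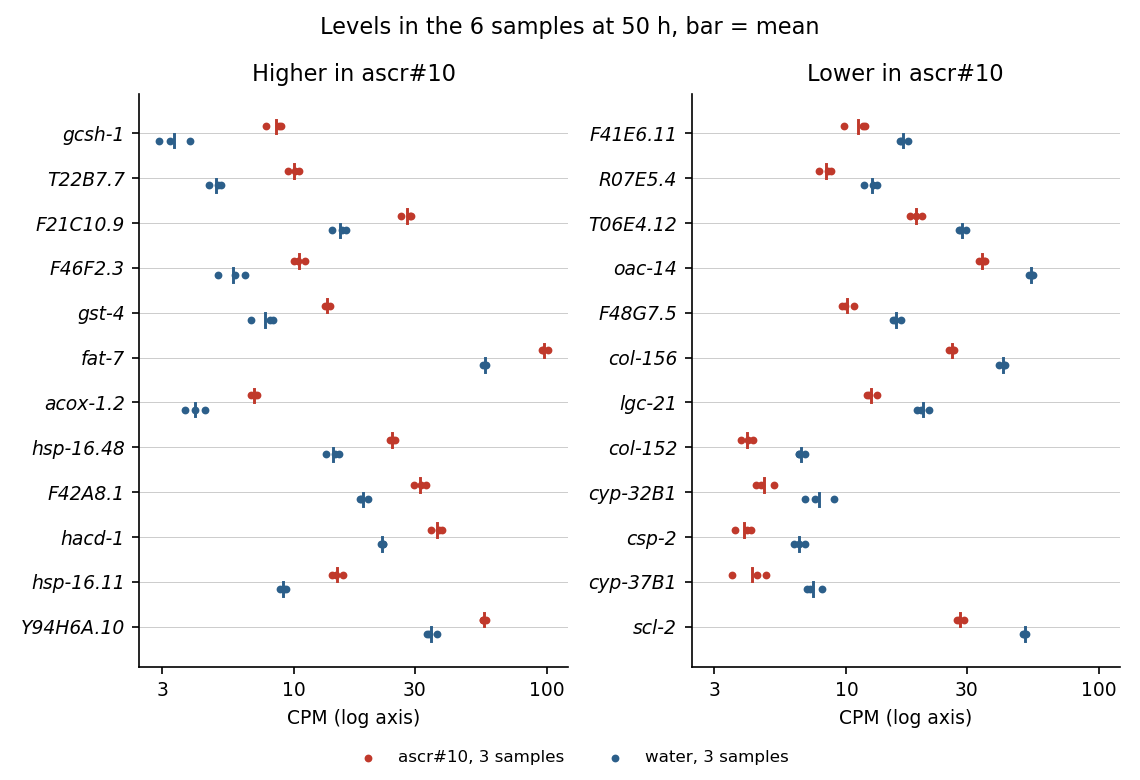
CPM (x axis, log scale) of each of the 3 ascr#10 and 3 water samples for the 12 genes with the highest and the 12 with the lowest log2 fold change among called genes with a mean of at least 5 CPM. Points are samples and short bars are group means. For each of the 24 genes the ascr#10 and water points stand apart, which the choice of genes required.

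The lowest log2 fold changes by the same rule belonged to a secreted protein, a pair of cytochrome P450 enzymes, collagens and a predicted acyltransferase. scl-2, of the SCP family of secreted proteins (chromosome IV, 13057710 to 13059062), had 29.1, 28 and 27.5 CPM in ascr#10, against 50.2, 50.7 and 51.3 CPM in water. The ascr#10 samples were all well under the water samples, at 0.556 times their level (log2 fold change -0.85 ± 0.044, adjusted p = 6.9e-25). The P450 enzyme genes were cyp-37B1 at a log2 fold change of -0.80 (adjusted p = 1.2e-07) and cyp-32B1 at -0.71 (adjusted p = 9.8e-07). oac-14, which encodes a predicted O-acyltransferase, had 34.9, 35.2 and 33.5 CPM in ascr#10 and 52.8, 54.1 and 54.9 CPM in water. It was lower in each ascr#10 sample than in any water sample, with a log2 fold change of -0.64 ± 0.041. csp-2, of the caspase family, averaged 3.94 ± 0.294 CPM in ascr#10 and 6.51 ± 0.336 CPM in water. lgc-21, a predicted ligand-gated ion channel subunit, averaged 12.5 ± 0.626 CPM in ascr#10 and 20.1 ± 1.14 CPM in water. The collagens col-152 and col-156 and the genes F48G7.5, T06E4.12, R07E5.4 and F41E6.11 completed the set, with log2 fold changes between -0.70 and -0.59.

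Among called genes, the largest gains in absolute terms were those of yolk genes. Summed over the 6 vitellogenins, ascr#10 samples held 40080 to 40110 CPM and water samples 33170 to 34620 CPM, and all 6 genes were called higher, with a median log2 fold change of 0.47. vit-3 (chromosome X, 3567355 to 3572549) had 2450, 2441 and 2458 CPM in ascr#10, against 1615, 1635 and 1637 CPM in water. Each ascr#10 sample was above every water sample by far more than the spread in either group, and the log2 fold change was 0.59 ± 0.015 (adjusted p = 1.1e-40). vit-1 averaged 2006 ± 14.1 CPM in ascr#10 and 1338 ± 31.2 CPM in water, and vit-4 averaged 2917 ± 19.4 CPM in ascr#10 and 1953 ± 47 CPM in water (SD, n = 3 each).

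The other 3 yolk genes were more abundant and moved less. vit-5 averaged 5694 ± 42.6 CPM in ascr#10 and 4458 ± 79.8 CPM in water, a log2 fold change of 0.35 ± 0.013. vit-6 averaged 14150 ± 30.5 CPM in ascr#10 and 12720 ± 309 CPM in water, and vit-2 averaged 12880 ± 19.8 CPM in ascr#10 and 11890 ± 266 CPM in water. Their log2 fold changes were 0.15 and 0.12 with TMM and 0.08 and 0.05 on log2(TPM + 1), where neither passed. Some vit genes are near-identical, so reads may have been split among copies and the sum is firmer than any single member. In whole worms, more RNA per cell and more cells of a type cannot be told apart, here and in every group below.

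Genes of fatty acid metabolism moved both ways. Here and for every list below, the shares of all tested genes to set beside a count are 10.2% higher and 8.45% lower. Of 21 genes of fatty acid synthesis, desaturation and elongation, 11 were higher and 1 was lower. The elongases elo-5 and elo-6, which act in branched-chain fatty acid synthesis, averaged 56.2 ± 0.889 and 70.3 ± 0.867 CPM in ascr#10, against 35.9 ± 2.22 and 46.4 ± 2.33 CPM in water. acs-1, an acyl-CoA synthetase of the same branched-chain pathway, had 143, 136 and 139 CPM in ascr#10 and 95, 89.3 and 91.3 CPM in water, with no overlap and a log2 fold change of 0.60 ± 0.028. Of 37 genes of fatty acid breakdown, 12 were higher and 11 lower. acs-2, a mitochondrial acyl-CoA synthetase induced by fasting, had 188, 189 and 183 CPM in ascr#10 and 274, 277 and 282 CPM in water, lower in every ascr#10 sample, with a log2 fold change of -0.57 ± 0.02 (adjusted p = 4.2e-33). The lipase gene lipl-4 had a log2 fold change of -0.75 at a mean of 1.66 CPM in ascr#10 and 2.8 CPM in water.

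The largest loss in absolute terms was that of icl-1, which encodes the bifunctional glyoxylate cycle enzyme that lets worms turn fat into sugar (chromosome V, 724332 to 728004). It had 1285, 1271 and 1278 CPM in ascr#10, against 1787, 1835 and 1836 CPM in water. The highest ascr#10 sample was far under the lowest water sample, and the log2 fold change was -0.51 ± 0.016 (adjusted p = 2.1e-36). The next largest losses were those of the collagens col-12 and col-125 and of the muscle myosin gene unc-54, whose difference was 0.968-fold (adjusted p = 0.0099) and was lost when 4 of the 6 samples were left out in turn. Of 10 genes of ascaroside side-chain synthesis 3 were higher and 3 lower. Beside acox-1.2 at 0.78 stood acox-3 and acox-1.6 at -0.54 and -0.44.

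One-carbon metabolism and glycine cleavage had 12 higher and 1 lower of 20. sams-1, which makes the methyl donor S-adenosylmethionine, averaged 303 ± 4.17 CPM in ascr#10 and 227 ± 2.68 CPM in water. metr-1, the methionine synthase, averaged 865 ± 8.89 CPM in ascr#10 and 697 ± 7.64 CPM in water. The lower gene was cbs-2, a predicted cystathionine beta-synthase, whose groups overlapped (log2 fold change -0.35, adjusted p = 0.0044). Of 11 genes of propionate breakdown 5 were higher and 1 lower, with a median log2 fold change of 0.05 that was -0.003 under library size alone and -0.019 on log2(TPM + 1). acdh-1, an acyl-CoA dehydrogenase used as a sensor of propionate and vitamin B12 status, had 1408, 1404 and 1404 CPM in ascr#10 and 1199, 1199 and 1207 CPM in water, a log2 fold change of 0.23 ± 0.015.

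The lists of heat shock and other protein-folding genes held higher calls and no lower ones, while the wider dnj class of DnaJ co-chaperones had 6 of 29 higher and 1 lower. Of all tested genes 10.2% were higher, and of those over 300 CPM 60% were, so counts of abundant chaperones are to be read beside the latter. Of 12 small heat shock protein genes 8 were higher. Their median log2 fold change was 0.21, and 0.16 under library size alone and 0.12 on log2(TPM + 1). hsp-16.48 had 24.5, 24.9 and 23.9 CPM in ascr#10, against 15, 14.5 and 13.4 CPM in water, and hsp-16.11, its neighbour on chromosome V, had 14.1, 14.7 and 15.6 CPM in ascr#10, against 8.77, 9.15 and 9.26 CPM in water. Both belong to the 12 highest genes, which were chosen for having no overlap between groups (adjusted p = 5.8e-16 and 4.2e-11). They have close copies among which reads may be shared. hsp-16.41 was at 2.41 ± 0.404 CPM in ascr#10 and 1.66 ± 0.196 CPM in water (adjusted p = 0.038), and hsp-70 at 3.73 ± 0.723 CPM in ascr#10 and 2.19 ± 0.498 CPM in water (adjusted p = 0.00064).

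Of 22 cytosolic chaperones 15 were higher and 0 lower, with a median log2 fold change of 0.068 that was -0.005 on log2(TPM + 1). Of 19 genes of protein folding in the endoplasmic reticulum 11 were higher and 0 lower. Their median was 0.072, but 0.018 under library size alone and 0.0094 on log2(TPM + 1). hsp-4, the worm BiP, averaged 447.6 ± 7.12 CPM in ascr#10 and 391.8 ± 6.78 CPM in water. The protein disulphide isomerase gene pdi-6 and the co-chaperone gene dnj-7, of the same compartment, were at 0.22 and 0.24 on the log2 scale, while daf-41, the worm p23 co-chaperone of Hsp90, was at 0.16.

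Gene classes, taken as the letters of a symbol before the hyphen, were searched across the genome without a chosen list. Of 125 classes with at least 10 tested genes, 28 had a share of called genes at least 2 times that of all genes or a median log2 fold change at least 0.15 from that of all genes. Among these 28, 17 had more genes higher than lower and 8 more lower than higher. The classes vary in level and length, and abundant genes were called more often, so the shares describe the classes and were not tested against each other.

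**Figure D3:**
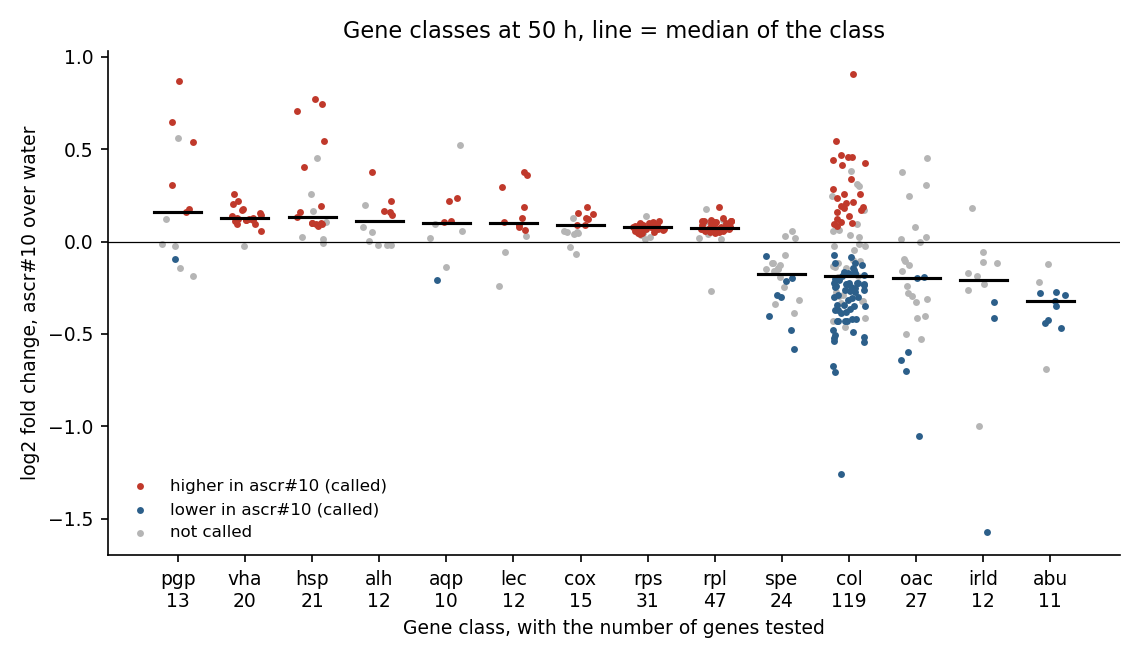
Log2 fold change (ascr#10 over water, y axis) of every tested gene in 14 of the 28 classes (x axis, with the number of genes tested). Points are genes, coloured by call, and black lines are class medians. vha genes lie close together above 0, col genes spread to both sides of 0, and abu genes all lie below 0.

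The vha class holds subunits of the vacuolar ATPase, the proton pump that acidifies lysosomes and other compartments, and 19 of its 20 tested genes were higher and 0 lower in ascr#10. Its summed level was 5123 to 5172 CPM in ascr#10 and 4641 to 4702 CPM in water, and its median log2 fold change was 0.13 with TMM, 0.072 under library size alone and 0.058 on log2(TPM + 1). vha-5 had 176, 172 and 168 CPM in ascr#10 and 144, 144 and 143 CPM in water, with no overlap and the highest log2 fold change of the class, 0.26 ± 0.024 (adjusted p = 1.3e-13). vha-10 and vha-12 had log2 fold changes of 0.22 and 0.20. Over all 20 subunit genes the log2 fold changes ran from -0.02 to 0.26.

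Galectins and efflux pumps were also called often for their number. Of 12 galectin genes (lec), which bind galactose-containing sugars, 9 were higher and 0 lower. lec-10 averaged 168 ± 5.26 CPM in ascr#10 and 131 ± 2.15 CPM in water, lec-9 had a log2 fold change of 0.30 and lec-11 one of 0.38 at about 10 CPM. Of 13 pgp genes, which encode P-glycoprotein efflux pumps, 6 were higher and 1 lower, with a median of 0.16 that was -0.011 on log2(TPM + 1). The latter median did not cover pgp-8, pgp-12 or pgp-13, whose mean TPM was under 1, so the 2 medians are of different genes. pgp-13 averaged 5.03 ± 0.481 CPM in ascr#10 and 3.21 ± 0.136 CPM in water. pgp-8 and pgp-12, at 1.86 and 3.42 CPM in ascr#10 and 1.03 and 2.36 CPM in water, had log2 fold changes of 0.87 and 0.54, while pgp-14 was at -0.10 (adjusted p = 0.019). All 4 lie on the X chromosome, and where copies are alike single members may share reads.

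Abundant housekeeping classes moved together by a few percent. Of 47 rpl and 31 rps genes, which encode the proteins of the cytosolic ribosome, 39 and 26 were higher and 0 and 0 lower, with medians of 0.075 and 0.076 that were 0.0051 and 0.0082 on log2(TPM + 1). Of 32 proteasome subunits 26 were higher and 0 lower (median 0.092), with pas-1 at 0.17 and rpn-13 at 0.14. Of 33 respiratory chain genes 23 were higher and 0 lower (median 0.089), with cox-6C at 0.16 and ucr-11 at 0.19. Of 31 translation factors 16 were higher and 1 lower, against 10 and 1 without ascr#10 replicate 2, with a median of 0.052 that was -0.001 under library size alone and -0.013 on log2(TPM + 1). Of 18 genes of ribosome biogenesis 1 was higher and 1 lower (median 0.0035, but -0.05 under library size alone). These differences of about 0.08 are close to the shift between scalings given above.

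Cuticle collagens were the class with the most called genes among these 28, and had calls in both directions. Of 119 col genes, 26 were higher and 62 lower in ascr#10, with a median log2 fold change of -0.18 that stayed negative under library size alone (-0.24), on log2(TPM + 1) (-0.23) and with the length offset (-0.15). The 26 higher genes were abundant, with a median level of 1320 CPM in ascr#10 and 1100 CPM in water. The 62 lower genes had medians of 107 CPM in ascr#10 and 126 CPM in water. At 58 h in the first collection, in worms that did not enter this comparison, the same 26 genes had medians of 818 CPM in ascr#10 and 805 CPM in water, and the same 62 had medians of 1.1 CPM in ascr#10 and 2.63 CPM in water. These 58 h levels are on a scale set over all 18 samples, and the lower collagens of 50 h were low there in both conditions.

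Among the higher collagens, col-143 had 351, 373 and 364 CPM in ascr#10, against 251, 249 and 246 CPM in water, and was apart in all 6 samples (log2 fold change 0.54 ± 0.02). col-149 had 153, 154 and 153 CPM in ascr#10 and 108, 114 and 110 CPM in water (0.47 ± 0.026), and col-119 rose 1.26-fold, to 1622 CPM in ascr#10 against 1283 CPM in water. The adult collagen col-19 averaged 1661 CPM in ascr#10 and 1462 CPM in water (log2 fold change 0.18 ± 0.016). Among the lower ones, col-12 averaged 813 ± 10.3 CPM in ascr#10 and 994 ± 12.4 CPM in water. col-156 had 26.4, 25.5 and 26.7 CPM in ascr#10 and 40.3, 42.7 and 42.2 CPM in water, and dpy-13, a collagen needed for body shape, averaged 164 ± 3.59 CPM in ascr#10 and 202 ± 0.915 CPM in water. col-143, col-149 and col-156 each overlap a tested gene on the other strand. So do other genes named in this report, among them elo-5, acs-1, vha-5, col-125, pho-1, perm-2, nas-37, lec-11, spe-9 and fbn-1. his-41 shares its strand and some exonic sequence with the tested gene C50F4.6.

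Other genes linked to the cuticle and the moult were also called. The abu class, several of whose glutamine- and asparagine-rich products belong to the cuticle of the pharynx, had 8 of 11 genes lower and 0 higher, with a median of -0.32 and every member below 0. abu-1 had 38, 41.3 and 39.6 CPM in ascr#10, against 54.9, 56.1 and 53.3 CPM in water, and abu-14 had 64.8, 65.4 and 70.9 CPM in ascr#10, against 85.9, 89.3 and 95.1 CPM in water. Neither gene overlapped between groups, and abu-8 had a log2 fold change of -0.44. Some abu genes are alike in sequence, so their reads may be shared. Of 30 moulting timers and matrix genes 3 were higher, 9 were lower and 18 were not called. The higher ones were mlt-9 at 0.31, the astacin protease gene nas-37 at 0.26 and lrp-1 at 0.19. The lower ones included fbn-1, a fibrillin-like matrix gene at 0.894 CPM in ascr#10 and 1.56 CPM in water, nas-36, an astacin protease that acts in moulting (log2 fold change -0.49), and lin-42, the worm Period homologue that cycles with the moults (-0.25, adjusted p = 0.0016).

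Most germline genes that were called differed by small amounts, and the oocyte and sperm lists were not tested against each other. Of 27 oocyte and eggshell genes 17 were higher and 0 lower, with a median of 0.072 that was 0.0037 on log2(TPM + 1). perm-2 and perm-4, of the eggshell permeability barrier, averaged 330 ± 3.67 and 604 ± 3.56 CPM in ascr#10, against 284 ± 7.67 and 538 ± 9.58 CPM in water. oma-2 and oma-1, regulators of oocyte maturation, had log2 fold changes of 0.13 and 0.08, both of which missed the threshold on log2(TPM + 1) (0.06 and 0.01). Of 26 meiosis genes 1 was higher and 1 lower, against 0 and 1 without ascr#10 replicate 2. Of 13 genes of germline progenitors 1 was higher and 1 lower (median 0.0086, but -0.045 under library size alone).

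Of 35 sperm genes other than major sperm protein genes, 1 was higher and 10 lower (median log2 fold change -0.12). The spe class, named for defective spermatogenesis, had 8 of 24 lower and 0 higher, and 5 and 0 without ascr#10 replicate 2. fer-1, which acts in the fusion of sperm vesicles, had 15, 13.5 and 15.2 CPM in ascr#10, against 18.6, 18.5 and 18.8 CPM in water, lower in all 3 ascr#10 samples (log2 fold change -0.35, adjusted p = 3.9e-05). gsp-3, a sperm phosphatase gene, averaged 62.7 ± 1.17 CPM in ascr#10 and 70.2 ± 0.205 CPM in water. spe-9, needed for sperm to enter the egg, was at -0.58 and spe-42 at -0.48 (adjusted p = 0.042). Of 33 major sperm protein genes 1 was higher and 3 lower. Their median log2 fold change was -0.024, and their summed level was 2912 to 2936 CPM in ascr#10 and 2934 to 2994 CPM in water. Their copies are near-identical and single members are uncertain.

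Markers of somatic tissues did not move as one. Of 18 intestine genes 9 were higher and 2 lower, and of 28 muscle genes 12 and 4, with medians of 0.055 and 0.063 that were -0.013 and -0.015 on log2(TPM + 1). The log2 fold changes of the intestine list ran from -0.11 to 0.36 and those of the muscle list from -0.16 to 0.13. act-5, the actin of the intestinal brush border, averaged 494 ± 6.02 CPM in ascr#10 and 394 ± 5.41 CPM in water, and pho-1, an intestinal acid phosphatase, 58.1 ± 2.85 CPM in ascr#10 and 45.3 ± 1.51 CPM in water. The intestine markers elt-2, the main intestinal transcription factor, and ges-1 were not called, at -0.03 and -0.11 (adjusted p = 0.83 and 0.18). myo-3, a muscle myosin, averaged 280 ± 0.988 CPM in ascr#10 and 313 ± 6.05 CPM in water. Of 26 neuron genes 1 was called higher and 0 lower, against 1 and 1 without ascr#10 replicate 2. The gene was bas-1, a decarboxylase of serotonin and dopamine synthesis, at 22.4 ± 1.4 CPM in ascr#10 and 16.3 ± 0.423 CPM in water. The part that any change in tissue proportions has in the differences was not tested.

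Stress, immune and signalling lists held scattered calls. Of 28 oxidative stress and detoxification genes 7 were higher, led by gst-4, and 3 lower, with a median of 0.027 that was -0.026 under library size alone. Of 32 innate immunity genes 7 were higher and 2 lower. lys-7, a lysozyme gene, averaged 102 ± 1.3 CPM in ascr#10 and 120 ± 1.83 CPM in water, and irg-1 was called higher with overlapping groups (adjusted p = 0.047). Of 24 genes of the insulin and TGF-beta pathways 3 were higher and 1 lower, against 2 and 0 without ascr#10 replicate 2. The shares called were 35.7%, 28.1% and 16.7% for these 3 lists, against 18.7% of all genes. The insulin and TGF-beta list was thus called no more often than genes at large. daf-7, a TGF-beta ligand made in sensory neurons, had 6, 4.66 and 4.64 CPM in ascr#10 and 4.06, 3.88 and 3.98 CPM in water (adjusted p = 0.041). daf-36, an oxygenase of steroid hormone synthesis on the same list, was at 0.35 (adjusted p = 0.0057). Of 16 zinc and iron genes 4 were higher and 4 lower, the median of 0.06 being -0.006 on log2(TPM + 1), with the ferritin gene ftn-2 at 0.23. cdf-2, a zinc transporter, was at -0.42 in the counts but at 0.41 in the length-scaled counts and 0.60 on log2(TPM + 1), so its direction depended on how transcript length was handled.

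Pseudogenes, a biotype of the Ensembl annotation picked out after the values were seen, were shifted to lower levels in ascr#10. Of 541 tested, 104 (19.2%) were lower and 4 (0.739%) higher, against 1172 (8.08%) lower and 1550 (10.7%) higher of 14501 protein-coding genes. Their median log2 fold change was -0.22 and 79.7% had a value below 0, against -0.0017 and 50.6% for protein-coding genes. Pseudogenes are low in level, and low genes leaned lower in general, so the biotypes are set side by side within ranges of level. At 10 to 30 CPM 24 of 48 pseudogenes were lower (50%), against 360 of 2755 protein-coding genes (13.1%), and at 3 to 10 CPM 35 of 140 (25%), against 224 of 2691 (8.32%). Without the 68 that share exonic sequence with another gene, 95 of 473 were lower and 4 higher. Reads of a pseudogene and of its parent gene can be alike, and how the counting divided them is not given in the sources used here.

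**Figure D4:**
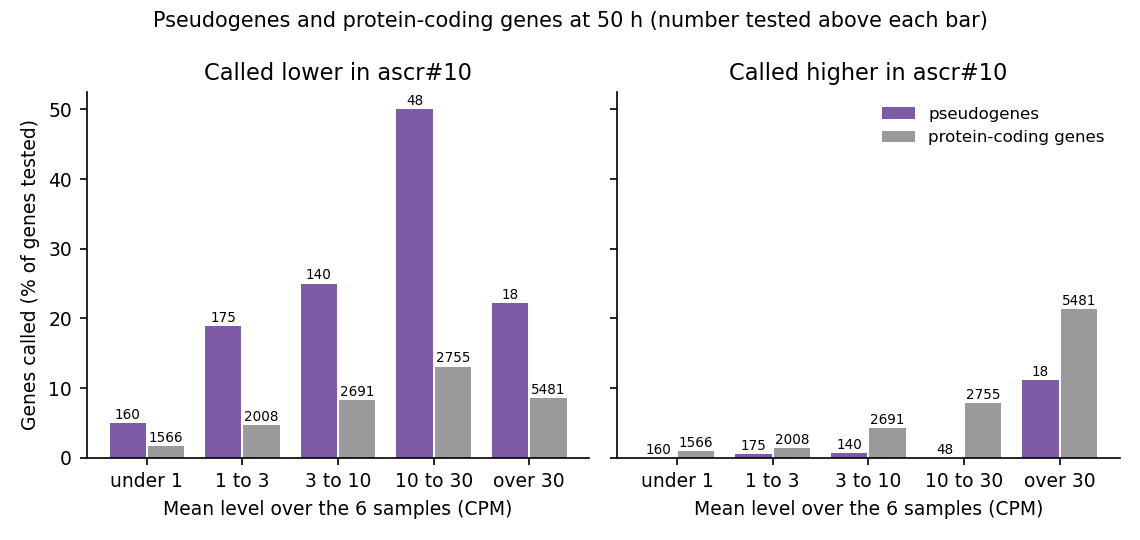
Share of tested genes called lower (left) and higher (right) in ascr#10 (y axis, percent) by mean level over the 6 samples in CPM (x axis), for pseudogenes and protein-coding genes, with the number of genes tested above each bar. The pseudogene bar is the taller one in all 5 ranges on the left and the shorter one in all 5 on the right.

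In worms of 58 h the same biotype was not shifted by a like amount. In the first collection 14 of 380 pseudogenes were lower and 2 higher, with a median of -0.05. Of 13053 protein-coding genes there, 656 were lower and 347 higher, with a median of 0.0024. In the second collection 34 of 427 pseudogenes were lower and 39 higher, with a median of 0.027. Of 13814 protein-coding genes there, 2501 were lower and 1679 higher, with a median of -0.016. Of the 32 pseudogenes of the fbxa class, which is named for an F-box gene family, 4 were lower and 0 higher, with a median of -0.26, and of 104 protein-coding fbxa genes 6 were lower and 2 higher, with a median of -0.092. The difference between the ages was not tested for the biotype.

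Several smaller classes lay below the median of all genes. The oac, irld and pals classes entered by their medians alone (-0.20, -0.21 and -0.23). Their shares of called genes were 22.2%, 25% and 11.1%, against 18.7% of all genes. The oac class had 6 of 27 lower and 0 higher (median -0.20), with oac-27 at 0.662 ± 0.101 CPM in ascr#10 and 1.37 ± 0.125 CPM in water. The irld class of insulin receptor-like domain genes had 3 of 12 lower and 0 higher, and irld-35 was at 0.31 CPM in ascr#10 and 0.918 CPM in water. The pals class, with members in the response to intracellular pathogens, had 2 of 18 lower and 0 higher, 1 and 0 without ascr#10 replicate 2, with pals-6 at -0.68 (adjusted p = 0.028). Classes that split were pho, with pho-13 at 0.44 and pho-8 at -0.45, grd, with grd-13 at 0.68 and grd-14 at -0.41, and aqp, with aqp-11 at 0.23 and aqp-1 at -0.21. Of 12 alh genes, which encode aldehyde dehydrogenases, 5 were higher and 0 lower, and alh-9 stood at 164, 164 and 164 CPM in ascr#10, against 126, 123 and 129 CPM in water.

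At the level of transcripts 551 of 20064 tested (2.75%) passed, 344 higher (1.71%) and 207 lower (1.03%), in 542 genes, of which 501 were also called as genes. For 6 genes, picked out after the values were seen, transcripts were called in opposite directions. ufd-1 encodes a ubiquitin fusion degradation factor. Its transcript F19B6.2a.2 had 111.8, 107.6 and 107.6 CPM in ascr#10 and 92.88, 89.62 and 92.63 CPM in water, while F19B6.2a.1 had 10.78, 13.49 and 14.15 CPM in ascr#10 and 22.95, 27.33 and 22.13 CPM in water. Both transcripts were apart in all 6 samples, in opposite directions. vab-10, a spectraplakin that holds the epidermis together, had ZK1151.1m.1 at 105.4 ± 7.14 CPM in ascr#10 and 72.74 ± 5.92 CPM in water and ZK1151.1o.1 at 103.4 ± 1.66 CPM in ascr#10 and 127.3 ± 4.91 CPM in water. In the other 4 genes, aat-4, F28F8.7, jmjd-3.1 and T28C12.4, 1 of the transcripts was listed at 0 in all 3 samples of a group, which an estimate of transcript levels can give without true absence. The uncertainty of assigning reads to transcripts was not used here, and no transcript passed when the replicate number was a block.

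The same contrast was fitted at 58 h in samples that this comparison did not use. In the first collection, gathered together with the 50 h worms, 1045 of 14075 genes (7.42%) passed, 352 higher (2.5%) and 693 lower (4.92%). Of the 2658 genes called at 50 h and tested there, 79.2% had the same direction, against 62.1% of all 13552 genes tested in both, and 536 were called in the same direction and 48 in the opposite one. In the second collection, gathered separately, 4355 of 15542 genes (28%) passed. There 72.1% of the genes lower at 50 h had the same direction but only 47.1% of the genes higher at 50 h did, against 55% of all genes.

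The 12 highest and 12 lowest genes show this by name. Of the 12 highest, 8 were also called higher at 58 h in the first collection and 1, hacd-1, was lower, whereas in the second collection 11 of the 12 were below 0 and 7 were called lower. gcsh-1 had a log2 fold change of 1.34 at 50 h, 1.35 in the first collection at 58 h and -0.19 in the second. Of the 12 lowest, 10 were tested in the first collection at 58 h, where 6 were lower and 2 higher, and 7 in the second, where 4 were lower and 0 higher. scl-2 was at -0.85, -0.50 and -0.61, and icl-1 at -0.51, -0.35 and -0.35, with a call in each of the 3 comparisons. The 6 vitellogenins had median log2 fold changes of 0.47 at 50 h, 0.063 in the first collection at 58 h and -0.17 in the second.

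**Figure D5:**
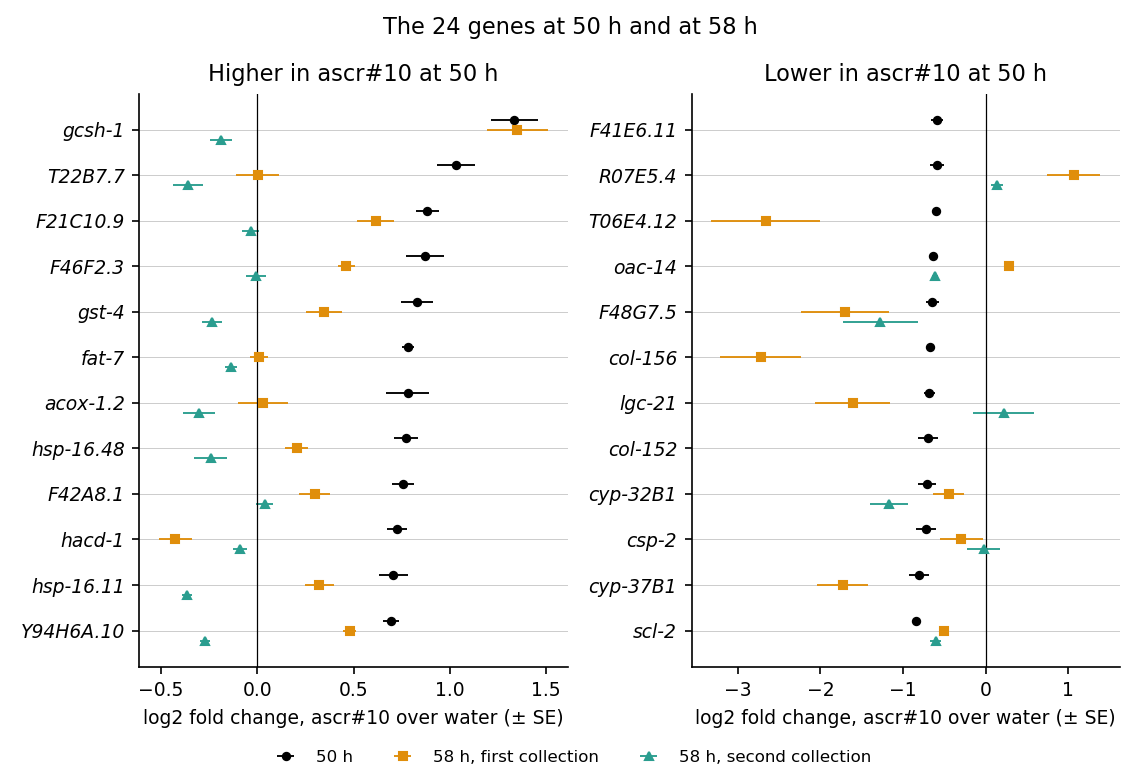
Log2 fold change, ascr#10 over water (x axis, with SE bars), at 50 h, at 58 h in the first collection and at 58 h in the second collection for the 12 highest and 12 lowest genes of 50 h (y axis). A missing marker is a gene not tested at that age. All but 1 of the 12 highest genes lie below 0 in the second collection, while scl-2 lies below 0 in all 3.

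The difference between the effect at 50 h and that at 58 h was tested within the first collection, on 12 samples. It passed for 807 of 15773 genes (5.12%). The log2 fold change, taken with its sign, was the higher one at 50 h in 622 of them (3.94%) and at 58 h in 185 (1.17%). A gene lower at both ages is among the 622 if its loss was larger at 58 h, so these counts do not say which age had the stronger effect. Of the 2840 genes called at 50 h, 556 had a called difference, and of the 217 at 1.5-fold, 38 did. Of the 556, 383 had an effect at 50 h that was farther from 0 than at 58 h or opposite to it. The 2840 and the 217 were chosen by their 50 h values, which also enter the difference, so these counts are a description. On a scale set over all 18 samples, fat-7 averaged 93.5 CPM in ascr#10 and 54.5 CPM in water at 50 h, and 40.3 CPM in ascr#10 and 40 CPM in water at 58 h. vit-3 averaged 2341 CPM in ascr#10 and 1561 CPM in water at 50 h, and 6645 CPM in ascr#10 and 6232 CPM in water at 58 h. The yolk gene was higher at 58 h in both conditions, with a smaller proportional difference between them, while for the desaturase gene the log2 fold change at the older age was 0.009 ± 0.045 (SE, adjusted p = 0.95).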

How the data were processed

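RNA from whole worms was made into directional libraries, per the labels' protocols. The deposited estimated counts per gene and per transcript, which are not normalized, were made with salmon, as the names and headers of the tables show. How salmon was run, and on which genome build, annotation and strand, is not given in the sources used here. Whole numbers made up 95.2% of the gene counts, and all counts were rounded. The deposited length-scaled estimated counts and the deposited TPM values, scaled for length and depth by the authors, served as alternatives. Every sample column of these tables matched a labelled sample.

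The 3 ascr#10 and 3 water samples of 50 h were fitted alone with edgeR 4.0.16 in R 4.3.3 (filterByExpr with a minimum count of 10, TMM scaling, robust quasi-likelihood F test). P-values were adjusted by Benjamini-Hochberg over all genes tested, with a threshold of 0.05. Levels are CPM on TMM-scaled library sizes, except those given for dpy-7 and the male and embryo markers, which are CPM on total counts. The same test was used at 58 h within each collection, for transcripts, and for the difference between ages in the 4 groups of the first collection. DESeq2 1.42.0 and limma 3.58.1 (log2 of TPM plus 1 or 0.1, mean TPM of at least 1) were alternatives. The procedure was tested on simulated counts. Biotypes, coordinates and neighbours come from Ensembl release 115 of WBcel235 by gene identifier, which held 15183 of the 15199 genes (99.9%). Symbols and identifiers are those of the files.

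The genes named were drawn from the 12 highest and 12 lowest called genes without overlap and with a mean of at least 5 CPM. They also came from the 4 largest gains and 4 largest losses in CPM, the cell type markers and the vitellogenins. Lists, and gene classes past the limits given in the report, gave up to 3 called genes per direction. The markers ges-1, rab-3, snb-1, unc-64, puf-5 and msp-19 were not called (adjusted p = 0.063 to 0.93). Their log2 fold changes were -0.11, 0.14, 0.03, 0.01, 0.05 and -0.02, and they were left out of the 113 named genes counted below. The members, the 33 lists and the rule were chosen with earlier results of these data known. 6 list symbols were not found in the files. Pseudogenes and the transcripts with opposite directions were picked out after their values were seen. Replicate pairs differed beyond sampling noise (chi-square of 1.82 to 19.3 per gene), so each was counted as 1 sample.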

Additional observations from a re-analysis of the deposited data

Results flagged for a closer look

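The effect of ascr#10 at 50 h differed from that at 58 h of the first collection, by an interaction test on the 12 samples, for 53 of the 113 genes named here. It did so for 5.12% of all genes tested and for 556 of the 2840 called at 50 h. The 2840 were called, and most of the 113 named, by their 50 h values, which also enter the difference, so both counts are a description. Values below are the log2 effect at 50 h minus that at 58 h. The metabolic and yolk genes were higher by more at 50 h. The values were 1.02 for T22B7.7, 0.76 for fat-7, 0.74 for acox-1.2, 0.55 for elo-6, 0.37 for elo-5, 0.27 for acs-1 and 1.14 for hacd-1, which had the opposite sign at 58 h. They were 0.49 for vit-3, 0.46 for vit-4, 0.40 for vit-1 and 0.31 for vit-5, 0.24 for sams-1, 0.16 for metr-1, 0.20 for acdh-1 and 0.32 for alh-9. For stress genes and genes without a class name they were 0.56 for hsp-16.48, 0.37 for hsp-16.11, 0.47 for gst-4, 0.45 for F42A8.1, 0.40 for F46F2.3 and 0.20 for Y94H6A.10. The remaining genes called higher at 50 h were vha-5 (0.22), lec-10 (0.15), pas-1 (0.14), perm-2 (0.19), perm-4 (0.13), oma-2 (0.10), inx-8 (0.18), nas-37 (0.35), lrp-1 (0.28), ftn-2 (0.16), bas-1 (0.37) and grd-13 (0.72), and the collagens col-143 (0.39), col-119 (0.24) and col-149 (1.10), of which col-149 was lower at 58 h.

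Cuticle, sperm and other genes that were lower at both ages had the larger proportional loss at 58 h. The values were 4.76 for abu-1, 1.71 for abu-8, 1.28 for abu-14, 2.03 for col-156, 0.92 for col-12, 0.72 for col-125, 1.14 for dpy-13, 2.06 for T06E4.12 and 0.65 for gsp-3. At 58 h the level of each of these genes was lower than at 50 h in both conditions. abu-1 averaged 0.0386 CPM in ascr#10 and 1.49 CPM in water there, so its value rests on few counts.

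The value was negative for 8 genes that were lower at 50 h, at -0.17 for icl-1, -0.36 for scl-2, -0.41 for lys-7, -0.45 for acox-3, -0.51 for grd-14, -0.88 for pho-8, -0.93 for oac-14 and -1.67 for R07E5.4. Of these, lys-7, oac-14 and R07E5.4 were called higher at 58 h. R07E5.4 averaged 1.03 CPM in ascr#10 and 0.492 CPM in water there.

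For 13 of the 53 genes the difference missed the threshold when a single sample was left out. These were T06E4.12 (adjusted p up to 0.18), grd-13 (0.12), gst-4 (0.12), hsp-16.11 (0.11), grd-14 (0.11), pas-1 (0.1), ftn-2 (0.09), inx-8 (0.088), oma-2 (0.081), F46F2.3 (0.064), Y94H6A.10 (0.064), bas-1 (0.063) and lec-10 (0.059). T06E4.12 lost its difference without ascr#10 replicate 1 or 2 of 58 h (1.42 and 1.87), gst-4 without water replicate 2 of 50 h or 1 of 58 h (0.39 and 0.37), ftn-2 without ascr#10 or water replicate 3 of 50 h (0.15 and 0.13) and inx-8 without ascr#10 replicate 1 or water replicate 2 of 50 h (0.15 and 0.17). The last 4 each depended on 1 sample, water replicate 1 of 50 h for F46F2.3, water replicate 2 of 50 h for Y94H6A.10, ascr#10 replicate 1 of 58 h for bas-1 and water replicate 3 of 58 h for lec-10, without which their values were 0.32, 0.18, 0.31 and 0.14.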

How the results depend on the processing

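The count of 2840 called genes at 50 h was 1847 with DESeq2, 1152 on log2(TPM + 1) and 1172 on log2(TPM + 0.1), and stayed within 1.5 times under the 10 other settings besides leaving out samples. Leaving out each sample in turn gave 2297 to 2558 calls. The 1556 higher calls became 643 under library size alone, 248 on log2(TPM + 1) and 254 on log2(TPM + 0.1). The 1284 lower calls became 2538 under library size alone, 749 with DESeq2 and 832 when all 18 samples were fitted. The 217 calls of at least 1.5-fold became 108 with DESeq2 (36 higher, 72 lower), 120 with a minimum count of 50 (35 and 85), 72 on log2(TPM + 1) (18 and 54) and 109 on log2(TPM + 0.1) (23 and 86). The cause was not tested, except that the higher minimum count removes low genes. Pseudogenes called lower numbered 104, and 57 with DESeq2, 34 and 35 on the TPM scales and 70 to 146 elsewhere, alternatives chosen after seeing the data.

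The 551 transcripts became 145 to 185 without each sample in turn. The 4355 genes of the second collection at 58 h became 2860 to 5143, the lowest without water replicate 3.

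The replicate numbers did not pair the samples, as same-numbered samples had correlations of -0.053, -0.032 and 0.0055. With the replicate block 2860 genes passed at 50 h, 903 and 5218 in the first and second collections at 58 h, 776 for the difference between ages, and 0 transcripts. The block changed no call of the 113 named genes.

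Of 2125 recomputed values of the 113 named genes, 1999 kept their direction and side of the threshold, 123 kept their direction but lost the call, and 3 reversed. The 3 are those of cdf-2, at 0.41 in length-scaled counts and 0.60 and 0.63 on the TPM scales. Calls of 11 named genes were lost when a sample was left out. These are daf-36 (without ascr#10 or water replicate 2, 0.29 and 0.26), pgp-12 (without ascr#10 replicate 3 or water replicate 2, 0.48 and 0.47), mlt-9 (without the same samples, 0.29 and 0.25), fbn-1 (without ascr#10 replicate 1 or water replicate 2, -0.73 and -0.70), and, without 3 to 5 of the samples, unc-54, hsp-16.41, pgp-14, spe-42, pals-6, irg-1 and daf-7. Their largest adjusted p-values were 0.093, 0.067, 0.1, 0.091, 0.17, 0.19, 0.095, 0.24, 0.24, 0.32 and 0.3 in that order.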

Other observations

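The remaining lists and classes held few or small differences. Mitochondrial protein folding had 7 of 14 genes higher and 0 lower, with a median log2 fold change of 0.079 that was -0.0026 on log2(TPM + 1). The prohibitin gene phb-1, of a ring complex in the inner mitochondrial membrane, averaged 258.5 ± 2.9 CPM in ascr#10 and 241.1 ± 2.77 CPM in water (SD, n = 3 each). Among 45 tested histone genes, which are all those of the his class, 3 were higher and 0 lower, and the median of 0.028 was -0.039 on log2(TPM + 1). The highest of them was his-41, at 36.6 ± 1.24 CPM in ascr#10 and 29.96 ± 0.359 CPM in water, and copies of these genes may share reads. Of 15 gonad sheath and spermatheca genes 1 was higher and 1 lower, against 1 and 0 without ascr#10 replicate 2. The higher one was the gap junction gene inx-8, at 60.3 ± 1.97 CPM in ascr#10 and 52.6 ± 0.64 CPM in water.

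Collagens listed for the adult cuticle split, with 2 of 8 higher and 4 lower. Beside col-19 and col-119, which were higher, col-62 averaged 174.6 ± 8.26 CPM in ascr#10 and 204.7 ± 5.64 CPM in water. Genes of the switch from larva to adult had 1 of 11 higher and 1 lower, and 0 and 1 without ascr#10 replicate 2, with a median of 0.015 that was -0.039 under library size alone. No gene was called among 10 tested zygotic embryonic genes (22 listed) or 3 tested male somatic genes (14 listed). Classes called often for their number also included rpn with 9 of 13 higher, ubc with 7 higher and 1 lower of 20 (3 and 1 without ascr#10 replicate 2), fipr with 6 and 1 of 18, spp with 5 and 1 of 16, asp with 5 and 0 of 13, ech with 4 and 0 of 10, acdh with 4 and 3 of 13 and dpy with 4 and 5 of 24. The gpa, frpr and nspb classes entered by their medians of -0.30, -0.18 and 0.16, with 1, 0 and 0 genes called. Without ascr#10 replicate 2, frpr had 1 gene lower. The medians of ubc (0.0061) and fipr (0.032) were -0.047 and -0.021 under library size alone, and that of asp (0.064) was -0.0042 on log2(TPM + 1).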
